A study of Mus musculus with 69 samples.

Results

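The 56 genes described here act in G2 and mitosis, and were found as the rows of 3 raw count tables (WT VSMC, KO VSMC and EC) whose Ensembl identifiers carry their symbols, 56 of 56953 rows. The rule uses gene symbols and no measured value, but the 56 genes were chosen with earlier results of these data known. The list holds cyclins and Cdk1 with its Cdc25 phosphatases, mitotic kinases, the chromosomal passenger complex, spindle checkpoint genes, and centromere and kinetochore genes. The rest are kinesins, spindle assembly genes, cytokinesis genes, condensin and other chromosome structure genes, genes of mitotic exit and proteolysis, and the transcription factor Foxm1. The counts come from 69 poly(A) RNA-Seq libraries of cultured primary cells of male C57BL/6 mice, 16 of WT VSMC, 15 of KO VSMC and 38 of EC.

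VSMC were vascular smooth muscle cells grown from both the thoracic and the abdominal aorta. Those called KO VSMC stem from mice with both Egfr alleles floxed and Cre under the SM22 promoter, so that Egfr, the gene of the epidermal growth factor receptor, is removed in cells that have used this promoter. EC were endothelial cells of the heart, taken with beads for CD31 after removal of CD45-positive cells, and were from animals labelled WT. Each culture was kept serum-free and exposed for 24 h to vehicle with albumin (Control), to 20 mM glucose with free fatty acids at 100 µM in the labels (HG + FFA), to 30 nM angiotensin II with 300 nM of a catecholamine, named epinephrine in the labels and norepinephrine in the methods (AII + NA), or to both pairs together (ALL). The albumin was present in all groups. The libraries form numbered sets of 1 animal and passage treated side by side, sets 1 to 4 for WT VSMC, 5 to 8 for KO VSMC and 9 to 18 for EC. Every WT VSMC group had 4 libraries. KO VSMC had 4 in each group but ALL, which had 3 because the 69 libraries include none of set 5 under ALL. EC had 10 under HG + FFA and ALL and 9 under Control, without set 10, and AII + NA, without set 15. EC sets 17 and 18 share 1 animal, EC sets 9 and 10 from the animals of WT VSMC sets 1 and 2, and EC sets 15 and 16 carry the animal numbers of KO VSMC sets 7 and 6.

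A dividing cell copies its DNA in S phase, passes G2 and enters mitosis when cyclin B with Cdk1 becomes active. Kinesins and spindle proteins then build the spindle, the kinetochore ties chromosomes to it, and the checkpoint holds back the anaphase-promoting complex, with its activator Cdc20, until all are tied. Transcripts of these genes peak together in G2 and mitosis and are held low in resting cells by the MuvB complex in its DREAM form. In adult arteries most smooth muscle cells rest, and in culture they can divide again.

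The libraries hold 23626664 to 37801299 counts in WT VSMC, 23238979 to 35120866 in KO VSMC and 17166133 to 43240489 in EC. Levels are given as FPM, fragments per 1000000 after TMM normalisation over all 69 libraries. Egfr, the targeted gene, had 283.3, 323.7, 430.8 and 504.3 FPM in the Control libraries of WT VSMC sets 1 to 4 and 40.2, 0.694, 0.537 and 1.69 in those of KO VSMC sets 5 to 8, so that set 5 kept 10.4% of the WT mean. In EC under Control it was 7.45 FPM in set 15, 2.2 in set 16 and 11 to 146.0 in the others. Among smooth muscle markers, Acta2 lay at 223.2 to 1883.5 FPM in WT VSMC, whereas Tagln did not pass 6.59, Myh11 13.6 and Myocd 1.18. Myh11 and Cnn1 averaged 237.2 and 378.2 FPM in KO VSMC set 5, the highest of any set. The fibroblast markers Dcn and Col1a1 were at 783.4 to 2782.3 and 1617.1 to 7362.4 FPM in WT VSMC. The summed level of 8 endothelial markers ranged from 50.4 to 4684.6 FPM in EC. In EC sets 9, 11 and 13 the endothelial marker Pecam1 averaged 25.9, 41.4 and 17.9 FPM, against 262.3 to 1602.7 in the other sets. Dcn averaged 917.4, 2951.2 and 3712.8 FPM in sets 9, 11 and 13, against 108.4 to 1103.5. Col1a1 averaged 2078.6, 5389.2 and 5762.0 FPM against 30.6 to 2947.3, and Acta2 740.5, 3115.7 and 2806.0 against 167.6 to 589.9. The cell make-up of these sets was not tested. KO VSMC set 6 stood apart in the genes described here, as given with each result.

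Many mitotic promoters carry a cell cycle genes homology region (CHR), bound by MuvB, and CCAAT boxes, bound by NF-Y. RefSeq promoters of GRCm38.p6, from 250 bases before to 50 after each start, were found for 48 of the 56 genes in 50 windows. The CHR was searched as TTTGAA or TTCGAA and the CCAAT box as CCAAT, both on either strand and without a shared base. A CHR stood in 84.0% of the 50 windows and in 19.2% of all 32851 windows, and a CCAAT box in 76% and 37.4%. Both stood in 70.0% of the windows and in 7.52% of all. Over 200 bases before the start alone, the CHR was in 42.0% of the windows against 13.4% of all, and the CCAAT box in 76% against 29.3%. Of 68 other mitosis genes, 54 were found, in 62 windows, and the CHR share over the longer window was 53.2%. Of 35 S phase genes 28 were found, in 33 windows, with a share of 18.2%. A match describes letters in a window and is not a test of binding.

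The 150 bases before the start of the 6 genes that were called in WT VSMC under both HG + FFA and ALL are shown to let these boxes be seen. They run 5′ to 3′ on the gene's strand, with every CHR or CCAAT match in capitals.
Mki67 (chr7:135716380-135716529, minus strand): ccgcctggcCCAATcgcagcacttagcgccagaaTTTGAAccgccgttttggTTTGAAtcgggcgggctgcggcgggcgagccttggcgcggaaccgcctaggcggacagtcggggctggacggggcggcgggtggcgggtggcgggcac
Top2a (chr11:99024190-99024339, minus strand): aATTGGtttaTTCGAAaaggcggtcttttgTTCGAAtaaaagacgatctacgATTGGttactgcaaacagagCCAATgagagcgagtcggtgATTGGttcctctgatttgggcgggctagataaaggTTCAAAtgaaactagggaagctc
Ccnb1 (chr13:100786487-100786636, minus strand): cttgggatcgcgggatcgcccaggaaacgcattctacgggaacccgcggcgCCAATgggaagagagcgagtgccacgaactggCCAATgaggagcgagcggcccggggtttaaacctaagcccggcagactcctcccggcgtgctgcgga
Kif11 (chr19:37376232-37376381, plus strand): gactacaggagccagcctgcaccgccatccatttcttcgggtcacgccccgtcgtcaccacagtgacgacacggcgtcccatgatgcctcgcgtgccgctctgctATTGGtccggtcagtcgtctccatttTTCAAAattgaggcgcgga
Ncaph (chr2:127133955-127134104, minus strand): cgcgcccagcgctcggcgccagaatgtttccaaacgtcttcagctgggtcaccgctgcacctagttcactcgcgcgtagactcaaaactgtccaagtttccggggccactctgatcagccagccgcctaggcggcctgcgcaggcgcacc
Ckap2l (chr2:129297213-129297362, minus strand): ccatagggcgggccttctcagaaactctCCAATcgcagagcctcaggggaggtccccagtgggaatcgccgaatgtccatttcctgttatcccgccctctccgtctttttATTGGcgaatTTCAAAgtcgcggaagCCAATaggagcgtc
Top2a has 3 CHR and 4 CCAAT matches in this stretch, and Mki67 has 2 and 1. Ckap2l has 1 CHR and 3 CCAAT matches, Kif11 1 of each, and Ccnb1 2 CCAAT boxes. Ncaph holds neither in this stretch.

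Under Control the genes were low in WT VSMC. Per kilobase of exon, the median level of the 56 genes in the Control libraries was 0.491 FPM for WT VSMC, 1.5 for KO VSMC and 1.52 for EC, and 12, 36 and 39 of them were above 1. Without set 6 the KO VSMC median was 0.771, with 25 genes above 1, and without set 1 the WT VSMC median was 0.384, with 7 above 1. In WT VSMC the highest levels per kilobase belonged to the condensin gene Smc4, at 5.93 ± 1.29 FPM (SD, n = 4), the spindle gene Ckap2 at 5.62 ± 3.06, Cdc20 at 3.07 ± 1.26 and Cdk1 at 2.68 ± 0.913. The ranges of 1 SD overlap between neighbours in this order, but that of Smc4 lies above those of Cdc20 and Cdk1. Cdc20 and Ckap2 also led in KO VSMC, at 9.19 ± 10.0 and 10.1 ± 8.43 (SD, n = 4), where the SDs were about as large as the means. Smc4 led in EC, at 25.3 ± 21.9 (SD, n = 9).

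The sets differed from each other by more than the treatments moved the median gene. Across Control libraries the highest level was a median of 3.79 times the lowest over the 56 genes in WT VSMC, 14.3 times over 55 genes in KO VSMC and 19.5 times over 51 genes in EC, leaving out genes listed at 0 in a library. The summed level of the 56 genes under Control was 335.0, 291.8, 164.9 and 184.2 FPM in WT VSMC sets 1 to 4 and 273.4, 1405.5, 542.3 and 171.2 in KO VSMC sets 5 to 8. In EC it ran from 141.0 in set 13 through a median of 598.9 to 1564.9 FPM in set 16. KO VSMC set 6 and EC sets 12 and 15 to 18 thus lay above every VSMC library of the other sets. In bulk samples, more cells in G2 and mitosis and more RNA of these genes per cell cannot be told apart.

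**Figure D1:**
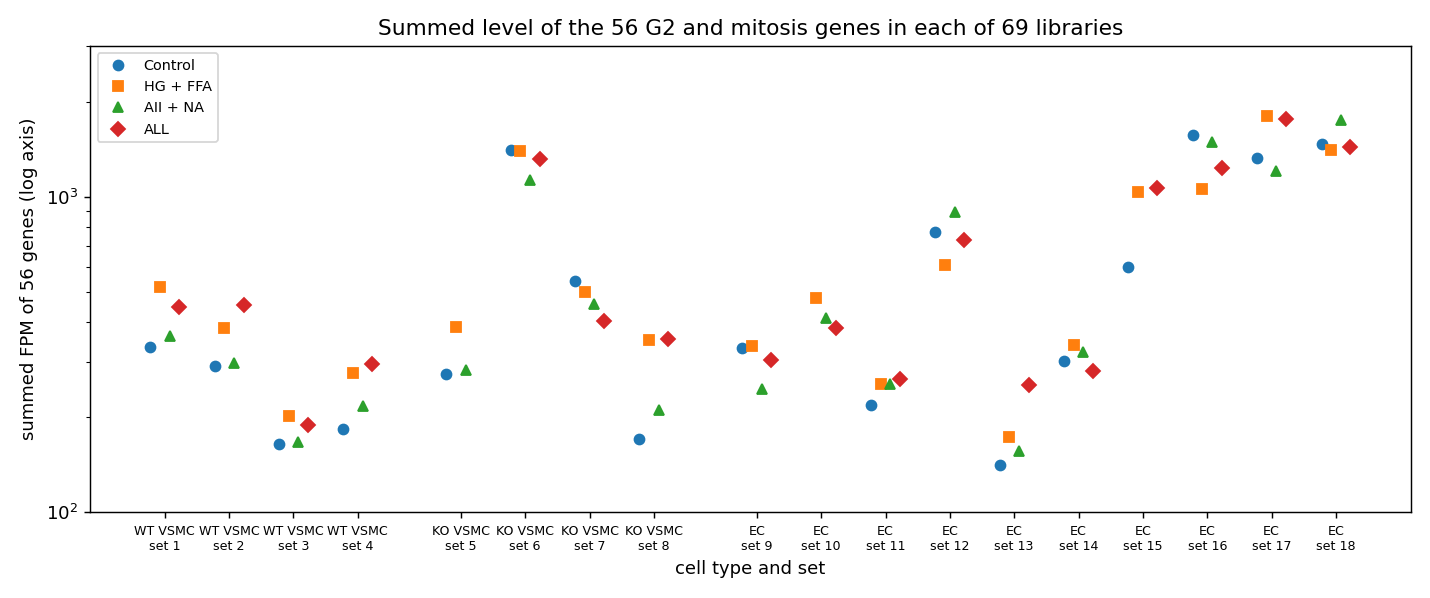
Summed FPM of the 56 G2 and mitosis genes (log axis) in each of 69 libraries, by cell type and set, with 1 symbol per treatment. The WT VSMC sets lie between 164.9 and 515.7, KO VSMC set 6 lies between 1131.7 and 1405.5, and the EC libraries of sets 16 to 18 lie between 1055.9 and 1805.8.

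The first question was what each stressor pair did to these genes in WT VSMC. HG + FFA raised 7 of the 56 and ALL raised 14, with none lowered and 6 genes called under both. The 6 are Mki67, the marker of cycling cells, and Top2a, the topoisomerase that untangles sister chromatids. The others are Ccnb1, the mitotic cyclin, Kif11, the motor that pushes spindle poles apart, Ncaph, a condensin subunit, and Ckap2l, a spindle protein. AII + NA called none. A gene was called at a Benjamini-Hochberg FDR under 0.05 in both edgeR's quasi-likelihood test and DESeq2, with a |log2FC| of at least 0.64 and a mean of at least 3 FPM in a group compared, with the set as a block.

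Over all 16905 genes tested, 0.290% were called under HG + FFA, 0.0473% under AII + NA and 2.24% under ALL. At an unadjusted edgeR p under 0.05, 44 of the 56 genes were higher and none lower under HG + FFA, 3 were higher and 2 lower under AII + NA, and 46 were higher and none lower under ALL. The share of all genes at that level was 11.2%, 9.42% and 21.7%. The median log2FC of the 56 genes was 0.68 under HG + FFA, 0.19 under AII + NA and 0.75 under ALL, and that of all genes tested was -0.01 in each. All 56 passed the filter on low counts in WT VSMC.

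Leaving out a set changed these counts. Under HG + FFA the 7 calls became 1 without set 1, 5 without set 2, 4 without set 3 and 2 without set 4, and under ALL the 14 became 13, 6, 21 and 9. The median log2FC stayed at 0.58 to 0.73 and at 0.61 to 0.84. Without the set as a block no gene was called under either.

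Mki67 had 5.84, 5.66, 1.07 and 1.6 FPM in the Control libraries of sets 1 to 4, 12.8, 11, 1.78 and 4.98 under HG + FFA, 7.27, 6.08, 1.18 and 3.23 under AII + NA, and 13.9, 13.3, 1.42 and 6.91 under ALL. It was higher than Control in 4 of 4 sets under each treatment, although the groups overlap. Set 3 was the lowest in every group. Its log2FC was 1.11 ± 0.171 (SE, edgeR FDR = 0.00667) under HG + FFA and 1.30 ± 0.171 (edgeR FDR = 0.000564) under ALL.

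Top2a went from 17.1, 12.1, 3.56 and 5.54 FPM under Control to 27.8, 22.3, 5.66 and 14.3 under HG + FFA and to 25.6, 29.0, 7.09 and 13.6 under ALL. Under AII + NA it had 17.8, 12.3, 3.26 and 9.74. The level rose in 4 of 4 sets under HG + FFA and ALL, by a log2FC of 0.89 ± 0.139 (SE, edgeR FDR = 0.00706) and 1.02 ± 0.14 (edgeR FDR = 0.000737), and was higher in 3 of 4 under AII + NA.

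Among cyclins, Cdk1 and the phosphatases that activate it, Ccnb1 had 5.78, 2.98, 0.685 and 1.35 FPM under Control, 9.72, 5.36, 1.56 and 3.04 under HG + FFA, and 8.12, 6.81, 1.35 and 3.22 under ALL. Each set rose by a log2 ratio of 0.74 to 1.11 under HG + FFA. Ccnb2, the second B-type cyclin, rose under ALL by 0.78 ± 0.15 (SE, edgeR FDR = 0.0057), from 4.10, 2.91, 0.603 and 1.42 to 5.46, 5.39, 1.09 and 2.90 FPM. Ccna2, the cyclin of S phase and G2, was called under ALL as well, at 0.76 ± 0.213 (SE, edgeR FDR = 0.0412), although set 3 went from 1.15 to 0.909 FPM.

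Cdk1 itself moved less. It had 22.5, 17.1, 11.3 and 11.5 FPM under Control, 30.4, 19.1, 13.9 and 16.4 under HG + FFA and 22.7, 23.6, 12.8 and 15.7 under ALL. It was higher in 4 of 4 sets under both, but its log2FC of 0.36 (edgeR FDR = 0.18) and 0.28 (edgeR FDR = 0.131) was below the threshold. Cdc25c had log2FC values of 0.77 and 0.86 with no call. Cdc25b was the lowest of the 56 under both, at -0.25 and -0.29, and had 9.08, 18.3, 14 and 15 FPM under Control against 8.64, 14.8, 10.4 and 11.8 under ALL. It was thus lower under ALL in 4 of 4 sets.

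Of the mitotic kinases Aurka, Plk1, Nek2 and Melk, none was called. The group means of Nek2 and Melk were under the minimum of 3 FPM, so these 2 could not be called. Aurka, which matures the centrosome, had a log2FC of 0.71 under HG + FFA and 0.81 under ALL, and Plk1, which drives entry into mitosis, 0.43 and 0.33. In the chromosomal passenger complex, which corrects faulty attachments, the kinase Aurkb rose under ALL by 1.18 ± 0.237 (SE, edgeR FDR = 0.00705), from 2.90, 1.85, 0.521 and 0.802 to 4.35, 4.53, 0.982 and 3.08 FPM. Its partners Incenp, Cdca8 and Birc5 had 0.56, 0.57 and 0.69, all at an unadjusted p under 0.05. Incenp reached an edgeR FDR of 0.0119 but not the threshold on fold change.

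The spindle checkpoint genes Bub1, Bub1b and Ttk were not called, and Bub1 and Ttk, with group means under 3 FPM, could not be. Bub1 had log2FC values of 0.89 and 1.06 under HG + FFA and ALL, and in set 3 it went from 0.329 to 0.306 and 0.145 FPM. Among the 8 centromere and kinetochore genes, Cenpe, a kinetochore motor, rose under HG + FFA by 1.25 ± 0.261 (SE, edgeR FDR = 0.0428), from 1.77, 2.02, 0.603 and 0.547 to 4.36, 4.48, 0.808 and 2.42 FPM. Under ALL it had 1.29 (edgeR FDR = 0.00766) and missed the call on the FPM minimum. Nuf2, of the Ndc80 complex that holds microtubules, rose under ALL by 1.06 ± 0.253 (SE, edgeR FDR = 0.0179), in 4 of 4 sets.

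The highest log2FC among the 56 belonged to Knl1, the kinetochore scaffold, with 1.85 under HG + FFA and 1.61 under ALL, but its level was at most 1.59 FPM in WT VSMC, under the minimum of 3. Cenpf was likewise low under Control, at 1.65, 1.51, 0.0822 and 0.766 FPM, and had 4.61, 4.17, 0.218 and 2.48 under ALL, a log2FC of 1.5 with no call for the same reason. The others, Cenpa, Cenpm, Ndc80 and Spc25, were above 0 under both and not called. Cenpm and Ndc80 were under the FPM minimum as well. The median of the kinetochore genes was 0.91 under HG + FFA and 1.01 under ALL, the highest of the groups with more than 3 genes.

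All 9 kinesins were higher at an unadjusted p under 0.05 under both HG + FFA and ALL. Kif11 had 2.41, 2.09, 0.658 and 0.802 FPM under Control, 6.01, 3.44, 1.03 and 2.91 under HG + FFA and 4.81, 5.99, 1.27 and 2.52 under ALL. Its log2FC was 1.16 ± 0.204 (SE, edgeR FDR = 0.016) and 1.28 ± 0.205 (edgeR FDR = 0.00182), with every set higher. Kif22, which pushes chromosomes from the poles, rose under ALL by 0.79 ± 0.176 (SE, edgeR FDR = 0.0122). Kif18b, with 1.20 and 1.04, passed the FDR in edgeR and not the minimum of 3 FPM. Kif20b, Kif23, Kif2c, Kif4, Kif15 and Kif20a had log2FC values of 0.36 to 1.28 under HG + FFA and 0.45 to 1.15 under ALL without a call. All of these but Kif20a had group means under 3 FPM and could not be called.

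Among the 7 spindle assembly genes, Ckap2l had 4.80, 3.09, 0.685 and 1.09 FPM under Control, 8.07, 6.45, 0.808 and 3.10 under HG + FFA and 7.60, 6.24, 0.982 and 3.69 under ALL. All 4 sets were higher under both. Under ALL, Prc1, which bundles the central spindle, and Hmmr, a spindle pole protein, rose by 0.86 ± 0.195 (SE, edgeR FDR = 0.0141) and 1.05 ± 0.209 (edgeR FDR = 0.00671). Ckap2, Tpx2, Nusap1 and Aspm were above 0 under both and not called, with Aspm under the minimum of 3 FPM. In cytokinesis, Iqgap3 rose under ALL from 4.00, 3.19, 0.192 and 0.875 to 8.29, 7.53, 0.582 and 2.34 FPM, by 1.22 ± 0.209 (SE, edgeR FDR = 0.00273). Racgap1 reached an edgeR FDR of 0.0114 under ALL at a log2FC of 0.44, below the threshold. Anln and Ect2 were not called, and Ect2 was under the minimum of 3 FPM.

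Of the 6 chromosome structure genes, Mki67, Top2a and Ncaph were called under both treatments and Smc2, Smc4 and Ncapg under neither. The group means of Ncapg were under 3 FPM, so it could not be called. Ncaph had 4.19, 3.84, 2.28 and 2.30 FPM under Control, 8.04, 5.89, 4.01 and 4.20 under HG + FFA and 5.75, 9.24, 3.85 and 3.64 under ALL, a log2FC of 0.82 ± 0.173 (SE, edgeR FDR = 0.0428) and 0.82 ± 0.175 (edgeR FDR = 0.0097). Its condensin partner Smc4 had 30.0, 45.1, 32.5 and 46.1 FPM under Control and 26.5, 41.8, 32.1 and 44.1 under ALL, lower in 4 of 4 sets with a log2FC of -0.09. Ncapg, another subunit, had the lowest log2FC under AII + NA, -0.60 (unadjusted edgeR p = 0.019, edgeR FDR = 0.389), and was lower in every set there. The highest under AII + NA was Kif18b with 0.68 (unadjusted edgeR p = 0.00799, edgeR FDR = 0.292).

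The genes of mitotic exit and proteolysis were Cdc20, Ube2c, Espl1 and Cdca3. They had log2FC values of 0.42 to 0.68 under HG + FFA and 0.42 to 0.75 under ALL. Each had an unadjusted edgeR p under 0.05 under both, and none was called. Espl1, the protease that opens cohesin, was also higher under AII + NA at that level, with 0.43. Foxm1, which drives many of the other genes, had 7.37, 7.20, 3.92 and 3.65 FPM under Control and 10.7, 9.88, 4.43 and 4.81 under ALL, a log2FC of 0.41 (unadjusted edgeR p = 0.0179, edgeR FDR = 0.127).

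**Figure D2:**
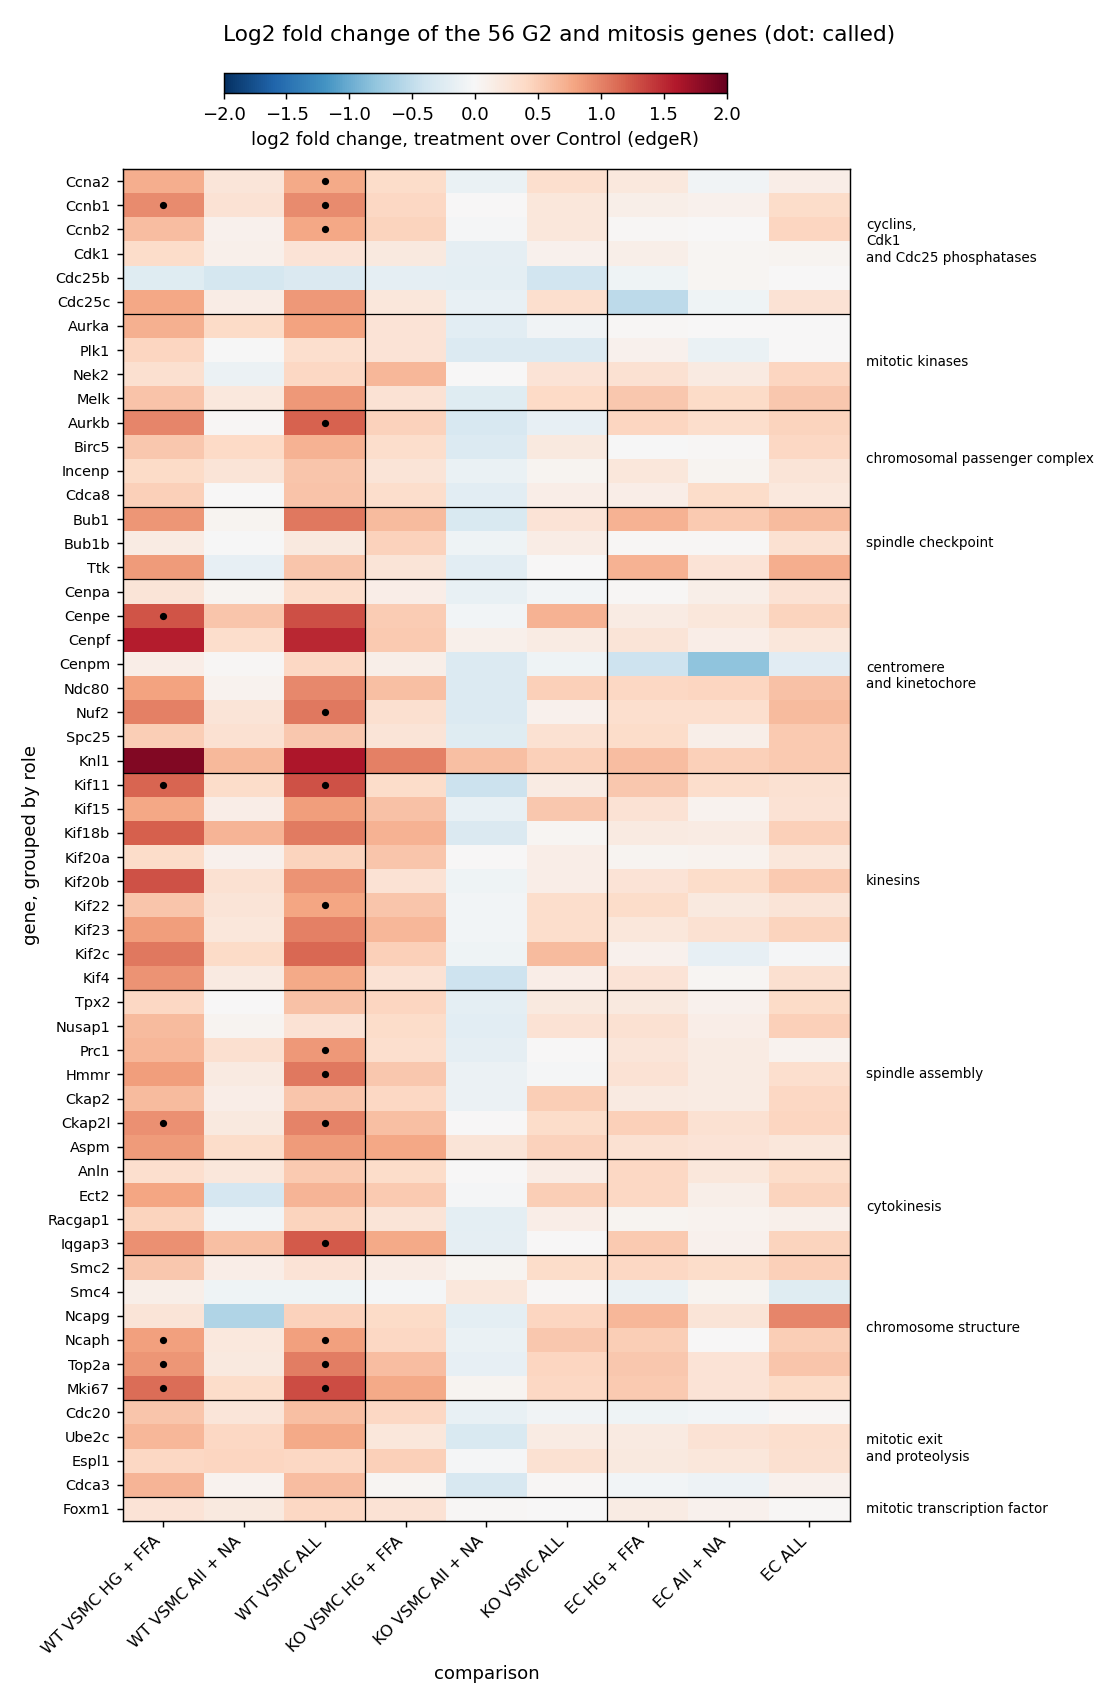
Log2 fold change of each of the 56 genes (rows, by role) against Control in 9 comparisons (columns), from edgeR, with a dot where the gene was called. WT VSMC has 7 dots under HG + FFA and 14 under ALL, and the KO VSMC and EC columns have none.

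Within sets, the median log2 ratio of the 56 genes to their own set's Control library was 0.71, 0.47, 0.35 and 0.92 under HG + FFA in sets 1 to 4, 0.10, 0.06, 0.08 and 0.37 under AII + NA, and 0.48, 0.87, 0.27 and 1.04 under ALL. Every set was above 0 under every treatment, and set 3 was the lowest under HG + FFA and ALL. Over all genes tested the medians ran from -0.03 to 0.01. In all, 36 of the 56 genes were higher in every set under HG + FFA, 10 under AII + NA and 35 under ALL, and 0, 2 and 2 were lower in every set. The share of all genes going 1 way in every set was not computed. In single sets, 43.1% to 52.8% of all genes tested were higher than Control.

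Whether AII + NA added to HG + FFA was tested directly. Between ALL and HG + FFA none of the 56 genes was called, as were 0.0296% of all genes, and 1 had an unadjusted edgeR p under 0.05 against 10.8% of all. It was Nusap1, lower by a log2FC of -0.33. The median difference was 0.07, and -0.09 without set 2, against 0.00 over all genes. The departure of ALL from the sum of both effects on the log2 scale was called for none of the 56 and 0% of all genes, and DESeq2 alone called none either. At an unadjusted edgeR p under 0.05, 1 of the 56 genes was above and 2 below the sum, against 1.72% of all. The median departure was -0.12, with 39 of the 56 genes below 0, against 0.01 over all genes. It ran from -0.32 to -0.05 with a set left out. The lack of a call does not show that the effects add. HG + FFA and ALL share their Control libraries, so their log2FC values are not independent.

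Other genes of the cycle give the context. Of 67 other mitosis genes tested in WT VSMC, none was called under HG + FFA and 5 under ALL, all higher: Spag5 with 1.32, Pbk with 1.37, Pimreg with 1.11, Dlgap5 with 1.0 and Mastl with 0.73. Their median was 0.35 and 0.33. Of 35 S phase genes only the replicative helicase subunit Mcm5 was called, under ALL, with 0.83, and the medians were 0.11 and 0.13. Of 21 regulators of the MuvB, E2F and NF-Y families none was called, with medians of 0.10 and 0.10, and Mybl2, which joins MuvB as cells enter the cycle, had 0.30 and 0.66 (edgeR FDR = 0.0525). Of 13 G1 genes, the CDK inhibitors Cdkn2b and Cdkn1c were called under ALL, at 0.69 and -0.85. Ccnd1, the G1 cyclin, had -0.19 and -0.05, Cdkn1a, the p53 target that inhibits CDKs, -0.23 and -0.17, and Mcm2 0.09 and 0.32.

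Markers of cell types moved as well. Under ALL, 3 of 6 smooth muscle markers were higher at an unadjusted edgeR p under 0.05, with a median log2FC of 0.89 over the 6, and 1, Tagln, was called at 0.95. Their summed level was 1034.3 to 1442.5 FPM against 328.3 to 1144.6 under Control. Of 8 endothelial markers, 5 were lower at that level, with a median of -0.72 over the 8, and 1, Cdh5, was called at -1.17. Their sums were 1.24 to 32.0 FPM against 1.95 to 66.6. Of 5 fibroblast markers, 3 were lower at that level, with a median of -0.30 and no call. Under HG + FFA no marker of these lists was called, and the median of the smooth muscle markers was -0.13. Under AII + NA, 3 of 6 smooth muscle markers were higher at an unadjusted edgeR p under 0.05, with a median of 0.86 and no call. The part of the markers in the result was not tested.

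The next question was whether the genes moved without Egfr. In KO VSMC none of the 56 was called by both tools together or by either alone under HG + FFA, AII + NA or ALL, where 0.291%, 0% and 0.314% of all 17538 genes were called. All 56 were tested. At an unadjusted edgeR p under 0.05, 15 were higher and none lower under HG + FFA, none either way under AII + NA, and under ALL Ckap2 (0.49) and Ncaph (0.54) were higher and Cdc25b (-0.39) lower. The share of all genes was 12.4%, 9.76% and 10.5%. The median log2FC was 0.40, -0.15 and 0.18, and over all genes tested 0.00, 0.01 and 0.00.

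Mki67 had 5.76, 39.7, 8.30 and 0.866 FPM under Control in sets 5 to 8, 8.38, 44.4, 13.1 and 5.28 under HG + FFA, 5.67, 32.4, 10.5 and 1.53 under AII + NA, and 40.0, 7.83 and 4.42 under ALL in sets 6 to 8. It was higher under HG + FFA in 4 of 4 sets, with a log2FC of 0.75 ± 0.269 (SE, unadjusted edgeR p = 0.0135, edgeR FDR = 0.308). Set 8 moved most and set 6 least on the log2 scale.

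Top2a had 14.7, 105.4, 31.1 and 3.33 FPM under Control, 22.2, 100.6, 35.1 and 19.1 under HG + FFA and 90.7, 24.5 and 19.2 under ALL. Sets 6 and 7 were lower under ALL than under Control and set 8 was higher. Ccnb1 gave the same picture, with 30.6, 10.7 and 1.55 FPM in sets 6 to 8 under Control and 28.2, 6.89 and 5.21 under ALL, and Kif11 with 17.6, 5.88 and 1.23 against 16.6, 3.97 and 3.56. The highest log2FC under HG + FFA was 1.0, for Knl1 (unadjusted edgeR p = 0.00488, edgeR FDR = 0.225), and the lowest -0.18, for Cdc25b. Under ALL they were 0.69 for Cenpe and -0.39 for Cdc25b, and under AII + NA 0.60 for Knl1 and -0.43 for Kif11.

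**Figure D3:**
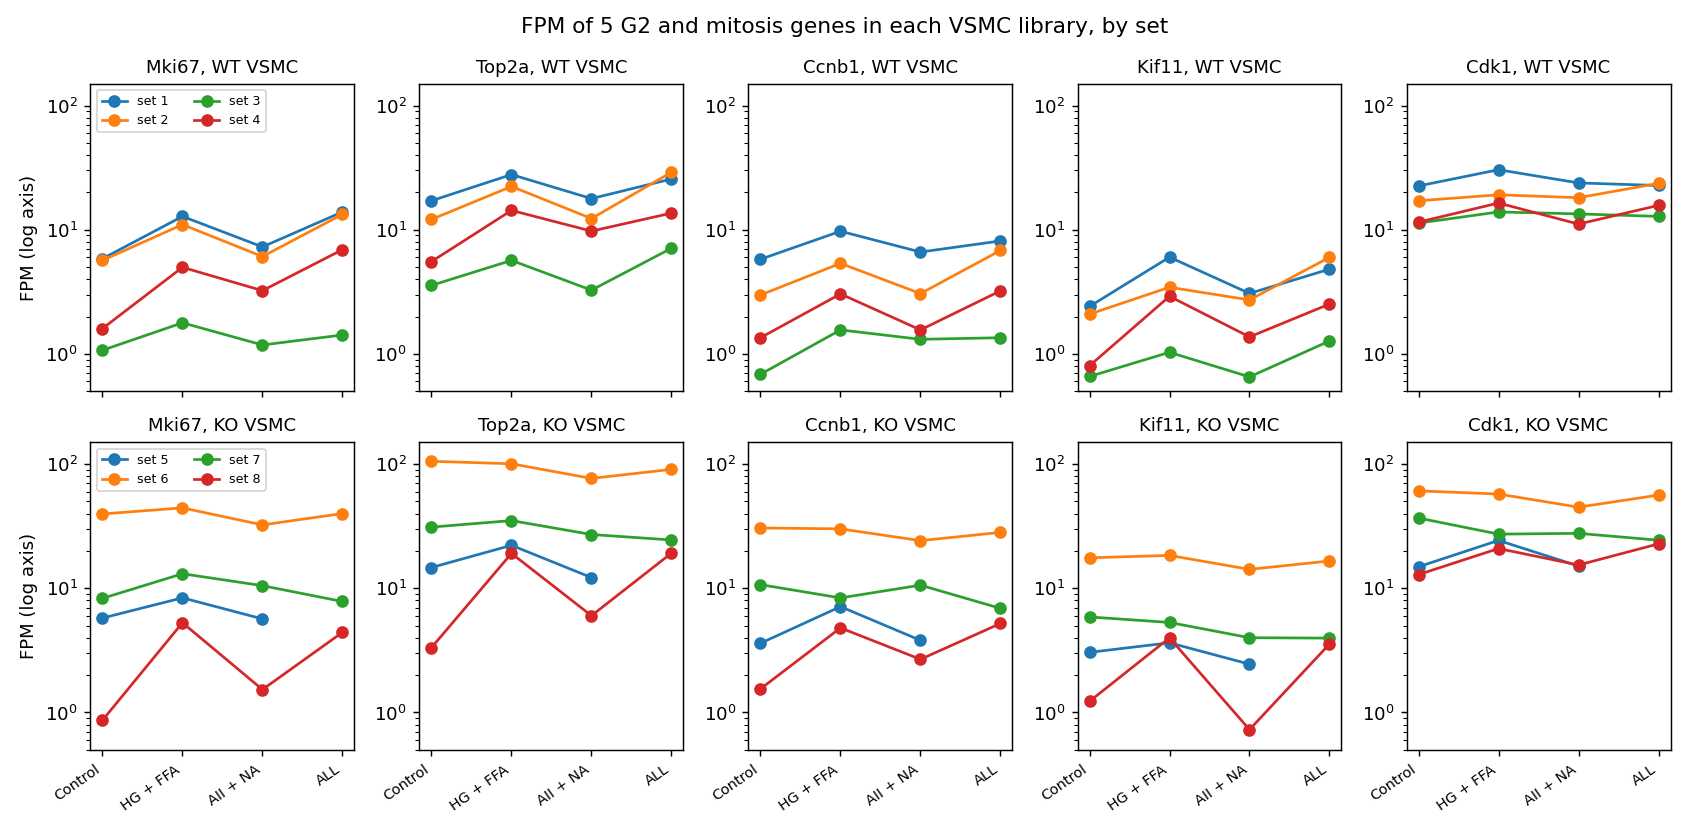
FPM (log axis) of Mki67, Top2a, Ccnb1, Kif11 and Cdk1 in each VSMC library, with WT VSMC above and KO VSMC below and 1 line per set. In WT VSMC every line is higher under HG + FFA and ALL than under Control, and some lines cross. In KO VSMC set 6 lies above all others, with 30.1 FPM of Ccnb1 under HG + FFA against 8.37 in the next set. From Control to HG + FFA, set 8 rises most steeply there in Mki67, Top2a, Ccnb1 and Kif11. Cdk1 rises about alike in sets 5 and 8, from 14.9 to 24.3 and from 12.9 to 20.9 FPM.

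The sets of KO VSMC went different ways. The median log2 ratio of the 56 genes was 0.69, 0.00, -0.09 and 1.37 under HG + FFA in sets 5 to 8, with 52, 29, 22 and 55 genes higher. Under AII + NA it was 0.05, -0.30, -0.39 and 0.18, and under ALL -0.09, -0.47 and 1.32 in sets 6 to 8, with 14, 11 and 54 genes higher. In set 6 under AII + NA all 56 genes were lower than under Control. Set 8 decided the sign under ALL, where the median log2FC was -0.15 without it, and under HG + FFA the median was 0.17 without set 8, 0.58 without set 7 and 0.20 with no set block. Across sets, 9 genes were higher in every set under HG + FFA and none under AII + NA or ALL, with no share over all genes computed.

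The departure from additivity in KO VSMC was called for none of the 56 genes and 0% of all, and 1 gene, Knl1 (-1.12), against 6.59% of all, had an unadjusted edgeR p under 0.05. ALL and HG + FFA differed in none of the 56 and 0% of all, with 1 gene, Kif18b (-0.66), against 2.91% of all at that level. DESeq2 alone called none in either.

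**Figure D4:**
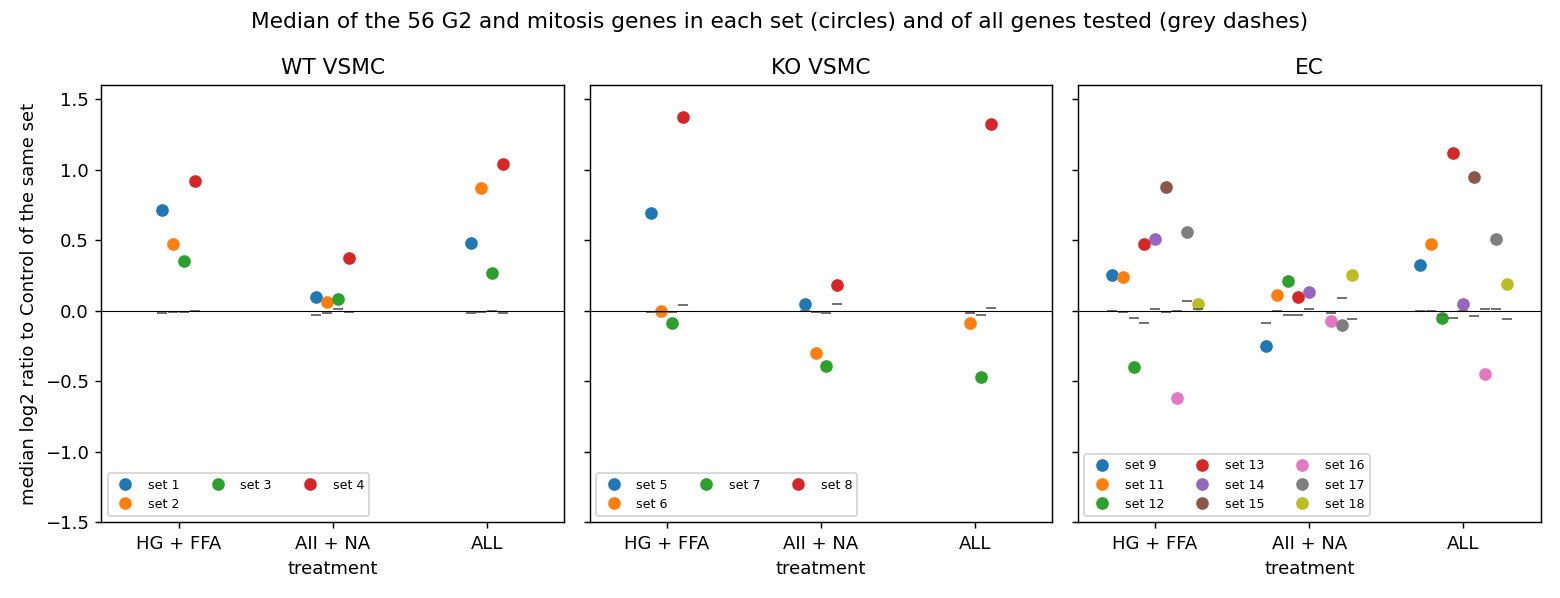
Median log2 ratio of the 56 genes to their own set's Control library (circles, 1 per set) and of all genes tested (grey dashes), by treatment, in WT VSMC, KO VSMC and EC. All WT VSMC circles are above 0, those of KO VSMC under ALL run from -0.47 to 1.32, and those of EC under ALL from -0.45 to 1.12.

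The genotypes were compared directly. Under Control, 55 of the 56 genes were tested between KO and WT VSMC, in 8 libraries without a set in common, and none was called, as were 0.00622% of all 16089 genes. The log2FC, KO minus WT, was above 0 for all 55, with a median of 1.71 against 0.00 over all genes, and 15 of the 55 had an unadjusted edgeR p under 0.05, all higher, against 12.2% of all genes. DESeq2 alone called Kif18b, the gene with the highest difference, 2.97 ± 0.991 (SE, edgeR FDR = 0.379). Its levels were 1.53, 0.788, 0.219 and 0.365 FPM in WT and 1.11, 16.9, 3.80 and 1.05 in KO VSMC, and the groups overlap. Mki67 differed by 1.94 ± 0.981 (SE, edgeR FDR = 0.427), and Smc4 by 0.02, the lowest.

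Without KO VSMC set 6 the median difference was 0.67. In the same comparison, 15 of 35 S phase genes and 21 of 68 other mitosis genes were higher at an unadjusted p under 0.05, with medians of 0.72 and 0.97. All 5 smooth muscle markers tested were higher at that level, with a median of 1.21, and 4 of 5 fibroblast markers were lower, with a median of -1.77. The summed fibroblast level was 1417.8 to 6285.5 FPM in KO and 4866.4 to 11437.1 in WT VSMC under Control. Of the KO sets, set 6 had the lowest means of Pdgfra, Dcn, Lum and Dpt, at 116.6, 68.8, 6.49 and 40.1 FPM. Its Col1a1 mean of 1495.7 FPM was above those of sets 7 and 8, 1356.6 and 949.0. The part of these markers in the difference was not tested. Egfr loss and the differences between animals cannot be told apart where each genotype comes from its own 4 animals.

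The effect of each treatment was then set against the other genotype in a joint model of 31 VSMC libraries. No member of the list was called for the HG + FFA, AII + NA or ALL effect, as were 0%, 0% and 0.0109% of all 18339 genes, and DESeq2 alone called none. At an unadjusted edgeR p under 0.05, KO minus WT was below 0 for 3 genes under HG + FFA (Cenpf, Kif20b and Kif11), for 3 under AII + NA (Kif18b, Incenp and Spc25) and for 12 under ALL, and above 0 for none. The shares of all genes were 3.08%, 11.9% and 7.42%. The median difference was -0.25, -0.30 and -0.50, and over all genes 0.00, 0.01 and 0.00.

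Under ALL the 12 genes were Aurka, Aurkb, Cenpf, Hmmr, Incenp, Iqgap3, Kif11, Kif18b, Knl1, Mki67, Nuf2 and Prc1. Aurkb differed by -1.33 ± 0.433 (SE, unadjusted edgeR p = 0.00507, edgeR FDR = 0.409), with 16.8, 8.30 and 1.5 FPM under Control and 19.2, 3.27 and 1.99 under ALL in KO VSMC sets 6 to 8. Mki67 differed by -0.89 ± 0.368 (SE, unadjusted edgeR p = 0.0238, edgeR FDR = 0.605). Without set 8 the median was -0.88 and 2 genes were called, Kif11 and Top2a, and without set 7 it was -0.18 with none called. With all sets, no difference between the genotypes passed the test, which does not show that they respond alike.

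In EC the 56 genes were tested in 38 libraries. None was called under HG + FFA, AII + NA or ALL, where 0.653%, 0% and 0.636% of all 17148 genes were called, and DESeq2 alone called 1, Ncapg under ALL. At an unadjusted edgeR p under 0.05, 13 genes were higher and none lower under HG + FFA, Smc2 (0.36) was higher and Cenpm (-0.81) lower under AII + NA, and 19 were higher and 1, Smc4 (-0.25), lower under ALL. The share of all genes was 16.9%, 6.67% and 16.2%. The median log2FC was 0.24, 0.13 and 0.35, and over all genes tested 0.00, 0.01 and -0.01.

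Ncapg had 0 to 13 FPM under Control with a median of 3.36 (n = 9), and 1.08 to 16.6 with a median of 3.64 under ALL (n = 10). The ranges of both groups overlap over most of their width. The log2FC within sets was 0.98 ± 0.32 (SE, edgeR FDR = 0.0884, DESeq2 FDR = 0.0334). Ncapg was higher under ALL in 7 of 9 sets, among them sets 11, 13 and 14, with Control levels of only 0.263, 0.296 and 0 FPM. Top2a had 4.15 to 121.6 FPM under Control with a median of 30.5, and 5.33 to 167.1 with a median of 31.3 under ALL, a log2FC of 0.56 ± 0.173 (SE, edgeR FDR = 0.0691). Ncaph had 0.49 ± 0.153 (SE, edgeR FDR = 0.0686), from 1.36 to 21.4 FPM with a median of 9.61 under Control to 1.99 to 25.9 with a median of 15.4. Mki67 had 0.53 under HG + FFA (edgeR FDR = 0.136) and 0.39 under ALL (edgeR FDR = 0.309). Under HG + FFA the highest value was 0.70 for Bub1 and the lowest -0.53 for Cdc25c.

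The EC sets differed in direction as well. The median log2 ratio of the 56 genes was above 0 in 7 of 9 sets under HG + FFA, from -0.62 to 0.88, in 5 of 8 under AII + NA, from -0.25 to 0.25, and in 7 of 9 under ALL, from -0.45 to 1.12. Set 16 was the lowest under HG + FFA and ALL, and set 15 was the highest under HG + FFA. No gene was higher in every set under HG + FFA or ALL, and under AII + NA only Cenpm was lower in all 8. Without sets 15 and 16, whose Egfr was low, the median log2FC was 0.28 under HG + FFA and 0.40 under ALL with no call, and without sets 9, 11 and 13, low in endothelial markers, 0.23 and 0.25 with no call. With complete sets only it was 0.10 under HG + FFA, and with no set block it was 0.04 under HG + FFA and 0.16 under ALL.

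The departure from additivity in EC was called for none of the 56 and 0% of all genes, and by DESeq2 alone for none. Kif11 (-0.58) and Cenpm (1.0) had an unadjusted edgeR p under 0.05, against 8.42% of all. Among other genes of the cycle, the ribonucleotide reductase subunit Rrm2 rose under ALL by 0.66 (edgeR FDR = 0.03), and 13 of 35 S phase genes were higher at an unadjusted p under 0.05, with a median of 0.20. The fibroblast marker Col1a1 was called under HG + FFA at -0.73, and its part in the values above was not tested.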

How the data were processed

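Poly(A) RNA was sequenced as read pairs. The authors aligned the reads to mm39 with HISAT2 2.1.0, counted them over exons with featureCounts, multi-mapping reads included, and deposited raw counts per gene, 1 table per cell type and with no normalization. The strand setting is not given in the sources used here, and 20 of the 56 genes share over 5% of their exon bases with another gene, 5 of them at least 25% (Cdc25c, Aurka, Spc25, Kif20a and Ncapg), so reads there are uncertain. Of 56953 identifiers, 56310 were found in GENCODE vM39.

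Counts were fitted per cell type with edgeR 4.0.16 (TMM, filterByExpr, quasi-likelihood test) and DESeq2 1.42.0 in R 4.3.3, with treatment and set as terms and Benjamini-Hochberg adjustment over all genes tested. The KO minus WT Control comparison had no block. The models were tested on simulated counts. Sets are paired since 1 animal and passage was treated side by side. Deviations of libraries of the same set correlated at a mean r of 0.818, 0.804 and 0.858 in WT VSMC, KO VSMC and EC (lowest 0.496, 0.668 and 0.703). No 2 libraries of a group were duplicates. FPM used TMM factors over all libraries, and log2 ratios of single FPM values a pseudocount of 0.1. Where the set was a block, p-values measure how far the treatment effect varied from set to set. In the KO minus WT Control comparison p-values weigh the difference against the spread between the sets. Depth adds counting error only.

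Genes named are those called, a fixed set of well-known members of each role, the highest and lowest log2FC of each comparison and, of the other lists, called genes with Mybl2, Mcm2, Ccnd1 and Cdkn1a. Genes with an unadjusted p under 0.05 where 12 or fewer had it are named too, chosen after their values were seen. The 56 genes and all lists were chosen with earlier results of these data known. The alternatives were either tool alone, no count filter, edgeR with the size factors of DESeq2, no log2FC threshold, no FPM minimum, no set block, only the 2 groups compared, each VSMC set left out, complete sets only, and for EC the animal as the block and sets left out.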

Additional observations from a re-analysis of the deposited data

Results flagged for a closer look

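Libraries far from the others of their group were sought in 129 tests of groups of 4 to 10 samples, of which chance alone would give about 1 in 20, and 10 were found. In KO VSMC under HG + FFA, set 6 stood above the other 3 sets in the summed level of the 56 genes (1398.8 FPM, next 500.5), in Ccnb1 (30.1, next 8.37), Kif11 (18.4, next 5.31), Foxm1 (27.5, next 10.3) and Cdc20 (46.6, next 10.9). The same set was high under Control as well, with 1405.5 FPM in sum.

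In EC under HG + FFA, set 17 was the highest of 10 in Top2a (174.7 FPM, next 95.8), Ccnb1 (31.9, next 17.2) and Cdk1 (56.1, next 37.9). In EC under AII + NA, set 18, from the same animal, had 572.1 FPM of Smc4 against 247.3 in the next set. In WT VSMC under AII + NA, the median log2 ratio of the 56 genes was 0.37 in set 4 and at most 0.10 in the other 3 sets. The causes were not tested.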

How the results depend on the processing

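No call was reversed under an alternative. In WT VSMC under HG + FFA the 7 calls became 11 with DESeq2 alone, 11 with no count filter, 12 with only the 2 groups compared and 0 with no replicate block, and ran from 1 to 5 with a set left out. Under ALL the 14 calls became 0 with no replicate block and ran from 6 to 21 with a set left out. Both fits used the pairing by set otherwise, and the block changed no other call of these genes. In EC under ALL DESeq2 alone and the fit with no count filter each called 1 gene, Ncapg. For KO minus WT Control DESeq2 alone called 1, Kif18b, and for the KO minus WT ALL effect the calls ran from 0 to 2 with a set left out. Among single genes with a call, 192 refits kept the call and 60 lost it, and among those without, 5334 stayed uncalled and 18 were called. Scaling by DESeq2 size factors changed no count of calls among the 56 genes. Over 200 bases before the start, the share of promoters with a CHR was 42.0% in place of 84.0%. Leaving out EC sets 9, 11 and 13 was chosen after seeing the data and gave no call. Leaving each set out of the levels per kilobase was chosen then too. The median log2FC of the 56 genes turned sign without set 8 in KO VSMC under ALL (-0.15) and without set 2 for ALL minus HG + FFA in WT VSMC (-0.09). It also turned sign under some alternative for ALL minus HG + FFA in KO VSMC (-0.31 to 0.04), for additivity in KO VSMC (-0.15 to 0.27) and EC (-0.14 to 0.11) and for AII + NA in EC (-0.02 to 0.15), and in no other comparison. The cause was not tested. Genes under 3 FPM, among them Knl1, Cenpf and Kif18b in WT VSMC, could not be called at these levels. With no FPM minimum, 9 of the 56 were called under HG + FFA and 18 under ALL in WT VSMC.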
